A study of Homo sapiens with 3 samples.

Results

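Cells of the tongue cancer line HSC-3 transfected with a DKK3 plasmid were compared with HSC-3 cells transfected with a plasmid encoding green fluorescent protein (GFP), the control for plasmid transfection. The comparison used 2 of the 3 arrays of the series, 1 for each plasmid. Its members were the gene probes brighter than the blank spots by 2 SD over their mean on at least 1 of these arrays, and 17579 of 24454 gene probes did so. HSC-3 is an established human squamous carcinoma line. The DKK3 plasmid held the full-length reading frame with an HA tag, and no tag was labelled for the GFP cells. The labels give 24 hours from transfection to RNA and medium with 10% serum, and the remaining array held RNA of untransfected HSC-3 cells. The treatment label speaks of another, mouse, line in its account of culture after transfection, while titles, descriptions and source names all give the human line. A transfected culture can also hold cells that took up no plasmid, and the share of transfected cells was not given in the sources used here.

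DKK3 is a secreted glycoprotein of the Dickkopf family, whose other members are best known as extracellular inhibitors of Wnt signalling. Secreted and membrane proteins enter the endoplasmic reticulum (ER), where chaperones, disulfide isomerases and glycosylation enzymes act on them before vesicles carry them to the Golgi. A high load of such proteins can set off the unfolded protein response, in which the sensors IRE1, PERK and ATF6 raise the transcription of ER chaperones and of the machinery that removes misfolded proteins.

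Each plasmid is represented by 1 array, so every value below describes 2 RNA samples and has no replicate error and no p-value. Differences are DKK3 minus GFP on the log2 scale after normalization, and a difference of 1 is 2-fold. The array carried 27456 spots in 24 printed blocks. Blanks averaged an intensity of 28.1 for GFP and 32.1 for DKK3, and the detection limits were 33.8 and 36.6. Log2 levels of the detected probes correlated between these arrays with r = 0.994 across probes, which are not independent replicates, and the robust SD of the differences was 0.084. Among the 2681 probes above a mean log2 level of 9 that both arrays detected, the raw spots of the DKK3 array were dimmer, with a median log2 ratio of -0.22, and normalization brought this to 0.0025. Raw spots and normalized levels can therefore differ in order, and every difference and every order of arrays below is that of the normalized levels. Most differences below are smaller than 0.5. The robust SD pools dim and bright probes and is not a replicate error. Larger differences were more frequent among bright genes, as given below, so this SD is too small a scale for them. Of 12 squamous epithelial markers, 10 were measured outside blocks 22 to 24, and they had a median difference of -0.02 with values from -0.17 for the keratin KRT5 to 0.21 for the adhesion molecule EPCAM. The fibroblast collagens COL1A1, COL1A2 and COL3A1, the leukocyte marker PTPRC and the muscle factor MYOD1 had no detected probe outside those blocks. Other markers of such cells were detected there. They were 1 of 8 fibroblast, 3 of 7 endothelial, 5 of 9 leukocyte and 5 of 9 skeletal muscle markers on the array. On the untransfected, GFP and DKK3 arrays CD68 read 277, 350 and 324, and ESAM read 206, 229 and 181. DCN read 168, 170 and 151, and DES read 102, 106 and 91.

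DKK3 itself was the member furthest above the GFP array. Its spot read 539 in untransfected cells, 749 with GFP and 64328 with the DKK3 plasmid. The untransfected and GFP cells thus lay close together, and the DKK3 array stood far above both. The normalized difference was 5.96, or 62.5-fold, from 1 probe. It was 6.63, or 98.9-fold, with cyclic loess and 6.68, or 103-fold, in the authors' deposited values, and the DKK3 spot was the brightest gene spot of its array, so the fold depends on the normalization. No probe sequence was used here, so transcripts of the plasmid and of the cells' own DKK3 gene cannot be told apart. Of the other Dickkopf family members DKK1, an inhibitor of Wnt co-receptors, was higher by 0.33. DKK4 was at 0.02, DKK2 at -0.07 and the related DKKL1 at -0.02. On the GFP and DKK3 arrays DKK4 read 42.8 and 45.3 and DKK2 44.3 and 42.8, near the detection limits.

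Past 2-fold, 21 probes were higher on the DKK3 array, 0.119% of the detected probes, and 24 were lower, 0.137%. Outside blocks 22 to 24 there were 18 higher (0.117% of 15386) and 16 lower (0.104%). In the authors' deposited values, which have no value for dim probes, 72 probes were higher and 146 lower. Of the 21 higher probes 19 were bright on the DKK3 array alone, and of the 24 lower probes 19 were bright on the GFP array alone, where bright means at least 2-fold above both other arrays. Only 5 of the higher and 2 of the lower probes belonged to a gene with another detected probe. AGR2 was the gene for which another probe also passed 2-fold in the same direction. No gene name was available for 5 of the higher and 4 of the lower probes.

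**Figure D1:**
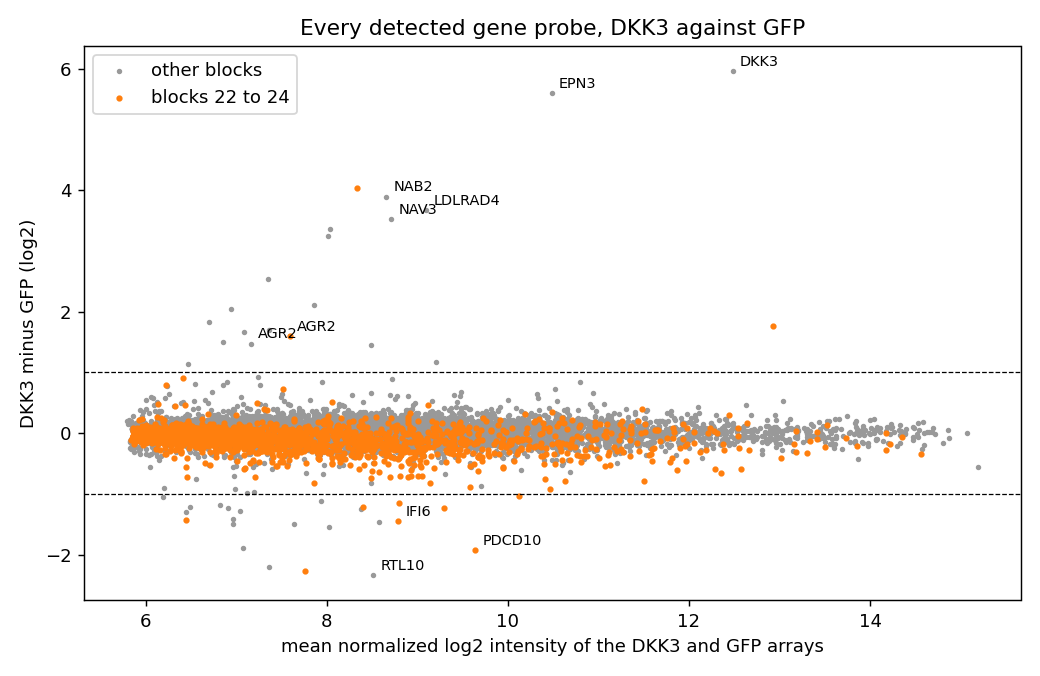
Each point is 1 of the 17579 gene probes detected on the DKK3 or the GFP array, with the mean normalized log2 intensity of these arrays on the x axis and the log2 difference DKK3 minus GFP on the y axis. Orange points lie in blocks 22 to 24 and dashed lines mark 2-fold. DKK3 and EPN3 stand at the top at 5.96 and 5.60, and nearly all other probes lie between the lines.

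EPN3, which belongs to the epsins and acts in endocytosis, read 162, 191 and 8801 on the untransfected, GFP and DKK3 arrays, a difference of 5.60 from 1 probe. Its spot lies at column 56 and row 9 of block 2, and the DKK3 spot lies at the same column and row of block 6. At that column and row the other 22 blocks read between 0.818 and 1.20 times the GFP spot on the DKK3 array, so EPN3 was the lone bright spot there apart from DKK3. Whether the shared position has a part in the EPN3 value was not tested.

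The next members by size were also bright on the DKK3 array alone. NAB2, a corepressor of EGR transcription factors, read 86.1, 82.7 and 1422 on the untransfected, GFP and DKK3 arrays, a difference of 3.90. NAV3, a microtubule-binding navigator protein, differed by 3.53, and the mRNA decay endonuclease SMG6 by 3.37. The kinase DYRK4 stood at 2.11 and ABHD14B at 3.24. The olfactory receptor OR7A10 differed by 1.66, the membrane protease TMPRSS13 by 1.498 and the checkpoint protein RAD17 by 1.44. Each of these rests on a single detected probe. For LDLRAD4, an inhibitor of TGF-beta signalling, the probe at 3.67 had a partner at -0.015, and for XYLT2, which starts glycosaminoglycan chains, the probe at 1.70 had partners at 0.04 and 0.03. These genes' probes disagree, so no difference is given for the genes as a whole.

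AGR2, a disulfide isomerase family member of the ER that secretory epithelia use for mucin production, was measured by 2 probes in different parts of the array. In block 13 it read 57.1 on the untransfected, 62.7 on the GFP and 203 on the DKK3 array, and in block 23 it read 73.9, 89.0 and 291. Both probes put the DKK3 array above both others. The differences were 1.47 and 1.60, about 3-fold. The probe in block 23 lies in the set-apart blocks and was not needed for this order.

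Among the lower probes outside blocks 22 to 24, RTL10, a retrotransposon-derived gene, read 167, 856 and 132 on the untransfected, GFP and DKK3 arrays, a difference of -2.34. TDRP read 56.9, 348 and 53.3, at -2.20, and the muscle phosphorylase kinase subunit PHKG1 read 55.3, 248 and 46.6, at -1.89. In all 3 the GFP array was the high one and the untransfected and DKK3 arrays lay together. The same order held for GRIP2 (-1.54), ZSWIM8 (-1.502), NOC4L (-1.47), FAM225A (-1.42), ARHGEF17 (-1.29) and FAM83G (-1.23). AKAP14 and GFAP were detected on the GFP array but not on the DKK3 array, where they were at least 2.32-fold and at least 2.33-fold lower. BRI3BP had another order, with spots of 247, 195 and 50.8, so here the DKK3 array was the low one. The BRI3BP difference was -1.498. All of these rest on 1 detected probe.

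Near the limit of 2-fold, RTKN at 1.17 and SIAE at 1.14 were just inside on the higher side, and the named probe just outside was PAGE3 at 0.92. RTKN's other probe, in block 24, stood at -0.33. SIAE read 108, 34.6 and 104, so the GFP array was the low one. On the lower side CRISP2 at -1.05, detected on the GFP array alone and at least 1.79-fold lower, and SLC20A1 at -1.04 were just inside, with POM121 at -0.98 and SLC5A2 at -0.97 just outside.

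Position on the array moved with the difference. The median difference of a block ranged from -0.063 in block 24 to 0.047 in block 12, and the share of its probes above 0 from 27.3% to 74.8%. Blocks 22 to 24 together had a median of -0.046 and a robust SD of 0.115, against 0.0032 and 0.082 in the other blocks. For 344 genes with detected probes both inside and outside blocks 22 to 24, the median was -0.072 inside and 0.011 outside, and the probe inside was the lower one for 259 genes (75.3%). Gene lists and agreeing probes below therefore use the other blocks.

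**Figure D2:**
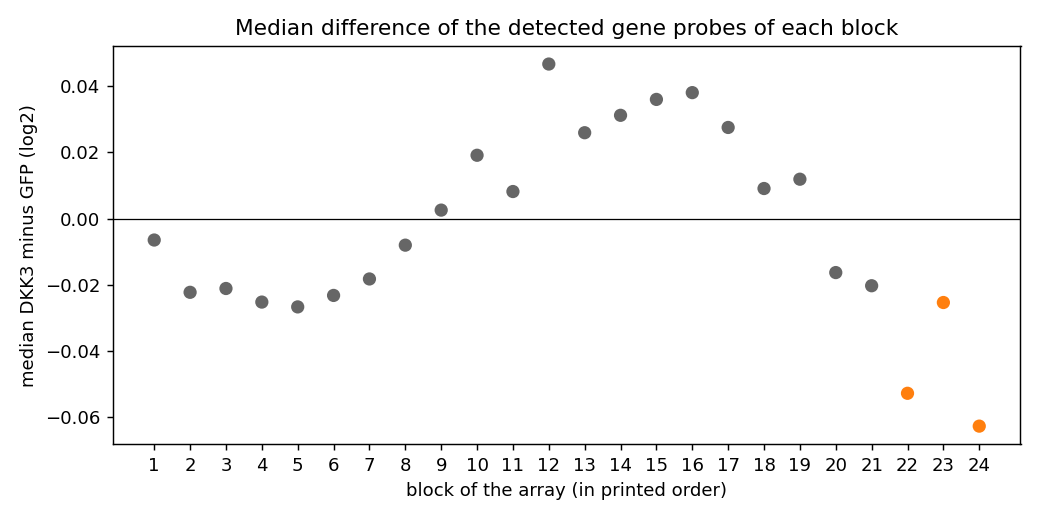
Each point is the median log2 difference DKK3 minus GFP of the detected gene probes of 1 printed block, with the block number on the x axis and blocks 22 to 24 in orange. Blocks 9 to 19 lie above 0, the other blocks lie below it, and block 24 is lowest at -0.063.

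Genes measured by several probes offer a check on single spots, since their probes sit in different places and read the same RNA. Outside blocks 22 to 24, 1215 genes had 2 or more detected probes. Over the 1182 genes with exactly 2 probes the differences correlated with r = 0.224 as a description, and all probes shared a sign in 706 of the 1215 genes (58.1%). Probes of the same gene thus agreed only in part. The median spread between the probes of a gene was 0.078, and it was not compared with the difference gene by gene. Every probe was higher by at least 0.3 in 3 genes (0.247%) and lower by at least 0.3 in 2 genes (0.165%).

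PGM3 and UAP1, the enzymes that complete the path from glucosamine phosphate to UDP-N-acetylglucosamine, the donor for N-glycans, were among the 3 higher genes. PGM3 stood at log2 levels of 8.32, 8.53 and 8.86 on the untransfected, GFP and DKK3 arrays with one probe and at 8.59, 8.71 and 9.04 with the other, differences of 0.33 and 0.33. For UAP1 the levels were 9.76, 9.69 and 10.08 with one probe and 9.86, 9.49 and 9.83 with the other, differences of 0.39 and 0.34. The DKK3 array was thus the highest for both PGM3 probes, but for UAP1 the untransfected array was level with it on one probe. GFPT1, the entry enzyme of the same path, had both probes higher, by 0.32 and 0.25. The acetyltransferase of the path, GNPNAT1, stood at -0.13, the GFPT1 paralog GFPT2 at 0.03, and OGT, which uses the product on cytosolic and nuclear proteins, at -0.06. These enzymes were looked up after the PGM3 and UAP1 values were seen.

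HNRNPA2B1, an RNA-binding protein of splicing and RNA transport, was higher by 0.46 and 0.39. Its levels were 12.94, 12.40 and 12.86 on the untransfected, GFP and DKK3 arrays with one probe and 10.89, 10.46 and 10.85 with the other. The GFP array was the low one, and the DKK3 array did not exceed the untransfected array.

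KRT15, a keratin of the basal epithelial layer, and AQP3, the glycerol and water channel of keratinocytes, were the 2 lower genes. KRT15 read 693, 611 and 351 on the untransfected, GFP and DKK3 arrays with one probe and 958, 946 and 581 with the other. AQP3 read 417, 341 and 206 with one probe and 235, 175 and 119 with the other. On all of these probes the DKK3 array was the lowest. The differences were -0.57 and -0.49 for KRT15 and -0.52 and -0.38 for AQP3.

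With a smaller size of 0.2, 22 genes (1.81%) had all probes higher and 4 (0.329%) had all probes lower, and the DKK3 array lay beyond both other arrays on both probes in 15 of the 22 and 2 of the 4. Over all 1215 genes, every probe put the DKK3 array highest in 15.8% and lowest in 9.14%. The 22 and 4 genes were picked for a DKK3 array above or below GFP, so these shares are no fair background for them. ER genes in this set were the disulfide isomerase PDIA6 (0.25 and 0.30), the oxidase ERO1A (0.21 and 0.28), which passes electrons from disulfide isomerases to oxygen, and the mannosyltransferase ALG2 (0.24 and 0.21). The glycosyltransferase EXT2 of heparan sulfate synthesis had 0.22 and 0.27. All of these were highest on the DKK3 array with both probes. The 22 also held genes of other functions, such as RND3, KPNA2, CUL2, NCL, ALCAM and MBNL2. The share of ER genes among the 22 was not compared with that among the 1215.

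**Figure D3:**
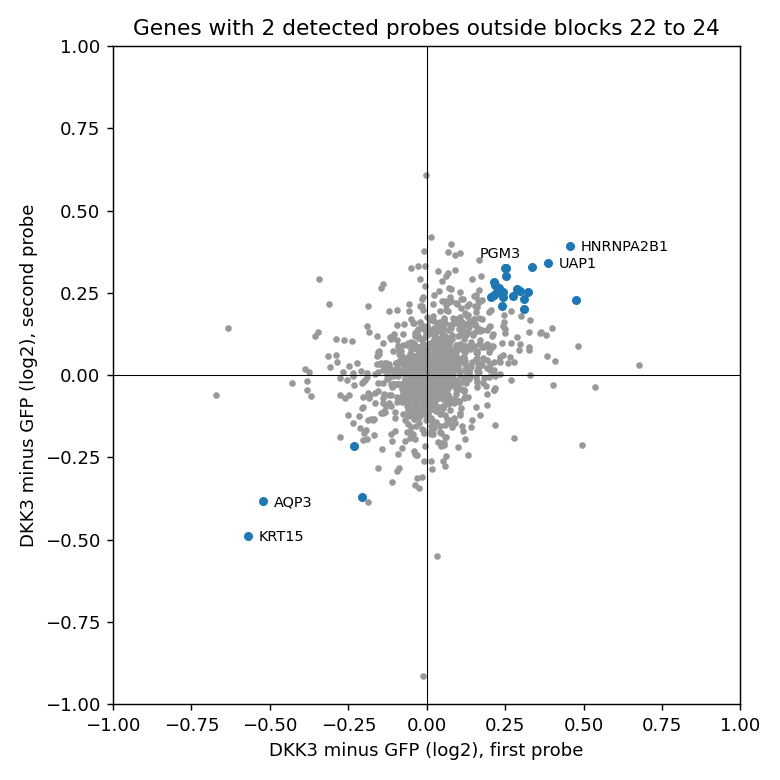
Each point is a gene with 2 detected probes outside blocks 22 to 24, with the log2 difference DKK3 minus GFP of one probe on each axis. Of 1182 genes 1181 are drawn and 1 lies beyond the axes. Blue points have both probes at least 0.2 to the same side, and the 5 named genes pass 0.3.

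The gene lists give a wider view. Over the 11851 genes measured outside blocks 22 to 24, 53.3% lay above 0 and 46.5% below, with a median of 0.0065. By 0.2 or more, 5.34% of genes were higher and 2.88% lower. These shares grew with the mean level of a gene, from 0.59% higher and 0.55% lower in the dimmest 20% of genes to 11.9% and 6.71% in the brightest 20%, so counts past 0.2 in lists of bright genes are to be read against the latter. Of 38 lists, 7 had at least 80% of their members on one side of 0. The unfolded protein response and ER folding, COPI and Golgi, cytosolic tRNA synthetase and mitosis lists lay above 0, and the cholesterol synthesis and both respiratory chain lists lay below. The other 31 lists did not reach that share. With the genes of blocks 22 to 24 kept in, 4 lists reached it, and COPI and Golgi (72.0%), tRNA synthetases (76.5%) and mitosis (67.5%) did not.

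**Figure D4:**
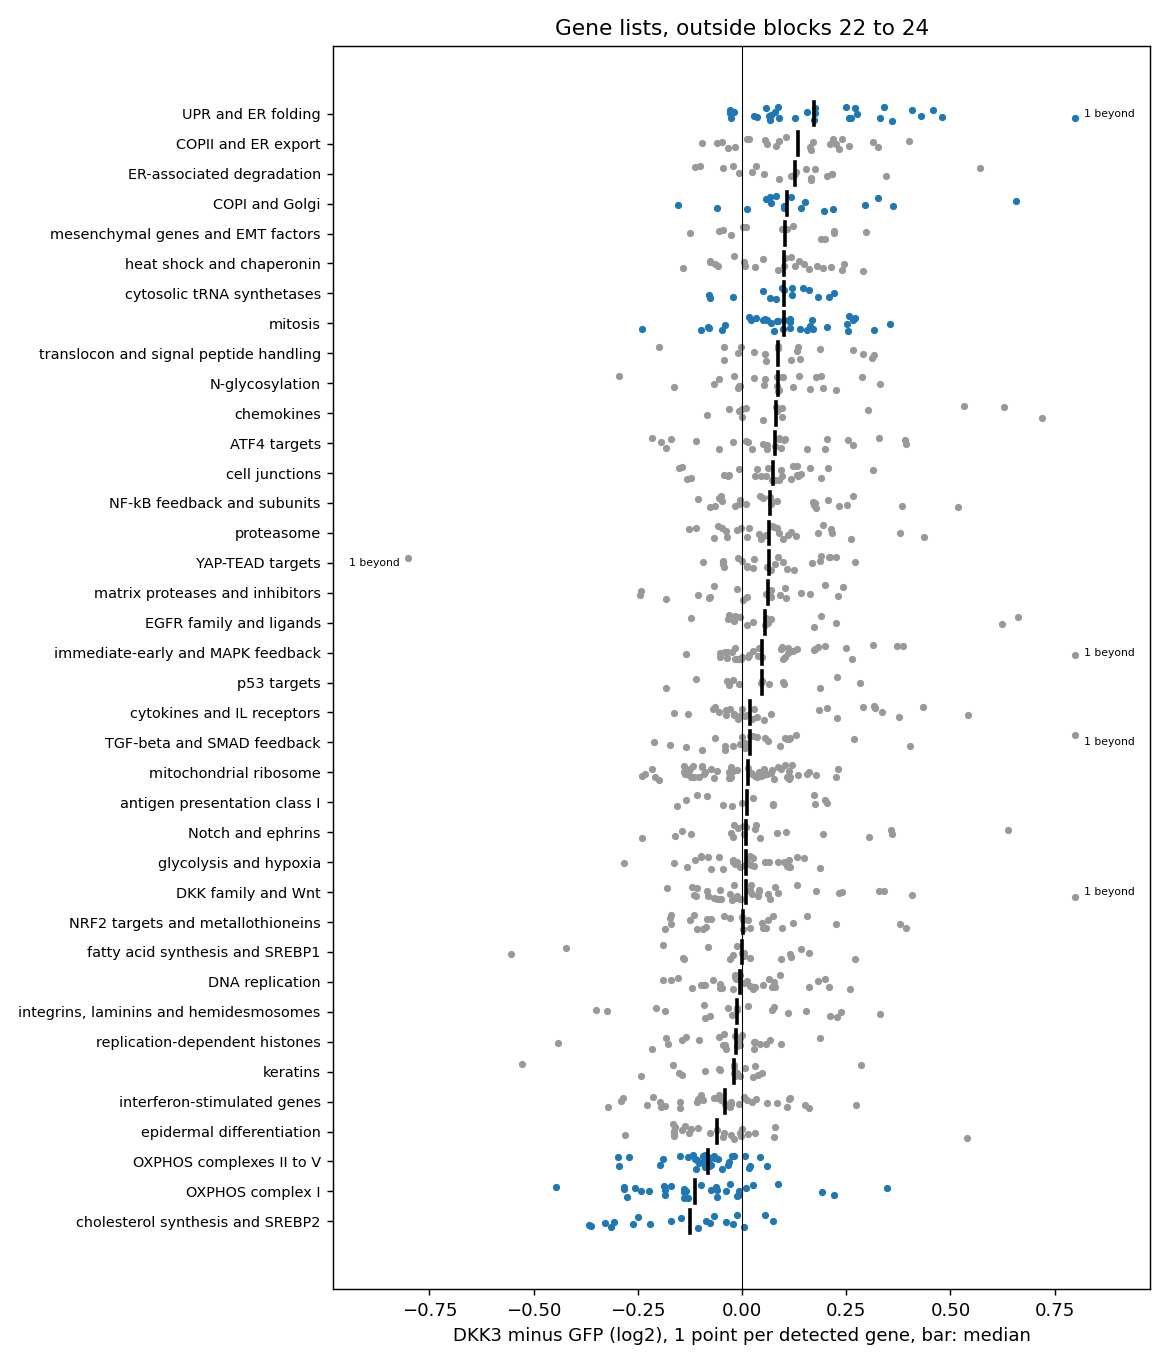
Each point is a detected gene of a list, placed by its log2 difference DKK3 minus GFP outside blocks 22 to 24, and each bar is the list's median. The 7 lists with at least 80% of members on one side are blue. Medians run from 0.17 for the unfolded protein response to -0.13 for cholesterol synthesis.

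Genes of the unfolded protein response and ER folding lay furthest above 0, with a median of 0.17, or 1.13-fold. Of 31 measured members 27 were above 0 and 13 were higher by at least 0.2, and no member was lower by that size. The DKK3 array had the highest of the 3 levels in 25 of the 31 members (80.6%), against 34.1% of all genes. Since 27 of 31 members already lay above GFP, 34.1% is no fair background for this count. The median level of the list lies in the brightest 20% of genes. SDF2L1, a partner of ER chaperone complexes, stood at log2 levels of 10.56, 10.67 and 11.15 on the untransfected, GFP and DKK3 arrays. DNAJB9, a co-chaperone that restrains the sensor IRE1, stood at 7.10, 7.37 and 7.82. PDIA4, a disulfide isomerase, stood at 9.35, 9.31 and 9.74. In each the untransfected and GFP arrays lay nearer to each other than to the DKK3 array, with differences from GFP of 0.48, 0.46 and 0.43. ERP44, which retains unfinished secretory proteins, differed by 0.41 and the ER chaperone HSP90B1 by 0.36. HSPA5, the central ER chaperone known as BiP, differed by only 0.07 and the chaperone HYOU1 by 0.03. The sensor ERN1, which is IRE1, stood at -0.03. On the GFP and DKK3 arrays HSPA5 read 89.6 and 89.4, HYOU1 93.3 and 90.1, and ERN1 49.7 and 48.8. The offset of 50 added in processing shrinks differences of spots this low, so these values do not show that the genes were unchanged. XBP1, whose mRNA IRE1 splices, stood at 0.17, and its spliced form was not measured separately here.

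Promoters of such genes can hold the ER stress element (ERSE, which is CCAAT, 9 free bases and CCACG) or the related ERSE-II (ATTGG, 1 free base and CCACG), both defined on genes of this response. Promoter stretches are shown for measured genes with a match, taken from RefSeq (GRCh38.p14), written 5′ to 3′ on the gene's strand, with the match on either strand in capitals. The first 3 lines hold the 200 bases before the start of transcription for 3 of the higher genes.
HERPUD1, chr16:56931942-56932141, + strand, ERSE-II: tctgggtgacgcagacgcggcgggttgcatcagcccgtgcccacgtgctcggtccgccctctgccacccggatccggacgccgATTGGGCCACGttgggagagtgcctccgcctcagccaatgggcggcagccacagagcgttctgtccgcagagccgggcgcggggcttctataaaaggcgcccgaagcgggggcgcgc
SDF2L1, chr22:21642102-21642301, + strand, ERSE-II: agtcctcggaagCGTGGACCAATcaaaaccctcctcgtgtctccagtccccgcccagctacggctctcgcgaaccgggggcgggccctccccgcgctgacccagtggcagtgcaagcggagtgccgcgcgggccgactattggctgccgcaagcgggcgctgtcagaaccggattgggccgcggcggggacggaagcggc
HSP90B1, chr12:103930210-103930409, + strand, ERSE on both strands: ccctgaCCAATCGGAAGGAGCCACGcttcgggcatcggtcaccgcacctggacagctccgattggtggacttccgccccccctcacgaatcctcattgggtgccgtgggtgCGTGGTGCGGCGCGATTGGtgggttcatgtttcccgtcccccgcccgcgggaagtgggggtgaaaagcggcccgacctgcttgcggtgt
CRELD2, chr22:49918539-49918587, + strand, ERSE: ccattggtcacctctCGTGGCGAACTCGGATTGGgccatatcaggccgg
CANX, chr5:179698763-179698811, + strand, ERSE: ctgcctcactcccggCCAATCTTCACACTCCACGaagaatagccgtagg
CALR, chr19:12938369-12938417, + strand, ERSE: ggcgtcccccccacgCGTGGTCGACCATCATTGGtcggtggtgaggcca
XBP1, chr22:28800588-28800636, - strand, ERSE: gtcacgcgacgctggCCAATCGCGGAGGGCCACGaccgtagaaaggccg
HSPA5, chr9:125241376-125241424, - strand, ERSE: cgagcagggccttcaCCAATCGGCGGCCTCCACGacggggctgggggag

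Within 250 bases before to 50 after the start, ERSE matched 22 of 27305 promoters (0.0806%) and ERSE-II 15 (0.0549%). Among the 29 unfolded protein response genes with a promoter entry, 6 held ERSE and 2 held ERSE-II. Of the 15 measured genes with ERSE, 13 lay above 0 with a median of 0.17, while 54.1% of the 9568 measured genes with a promoter entry lay above 0 with a median of 0.0082. Those 15 include the ER folding genes above, so the count is not separate from theirs. After HSP90B1 at 0.36 came CRELD2, an ER-resident protein, at 0.27, and the calcium-binding lectin chaperones of glycoproteins, CANX at 0.26 and CALR at 0.18. The match of CRELD2 is shared with its divergent neighbour ALG12, which stood at 0.05, and EIF2A at 0.22 (its probes at 0.01 and 0.42) and SERP1 at 0.20 share another, so these are not separate matches. ERSE genes outside the list included the glycine receptor subunit GLRA2 at 0.19 and the restriction factor TRIM5 at 0.17. For ERSE-II, 6 of 11 measured genes lay above 0 with a median of 0.03, HERPUD1 and SDF2L1 being highest at 0.57 and 0.48. HSPA5 holds ERSE and HYOU1 holds ERSE-II at 2 places, and both stayed within 0.1 of the GFP array. Their spots were low, as given above, so these genes do not decide whether a match goes with a large difference. A match describes these letters and is not a binding site.

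The lists for later steps of the secretory path had positive medians but only COPI and Golgi reached the 80% share. ER-associated degradation, which takes misfolded proteins out of the ER, had 16 of 21 members above 0 with a median of 0.13. HERPUD1, an organizer of that machinery, stood at 8.48, 8.47 and 9.04 on the untransfected, GFP and DKK3 arrays, a difference of 0.57. VCP, the ATPase that extracts substrates, differed by 0.35 and DERL2 of the membrane channel by 0.20. The translocon list, which moves new chains into the ER, had 15 of 20 members above 0, with SEC63 at 0.32, SEC61A1 at 0.31 and TRAM1 at 0.29, and TRAM2 at -0.20. N-glycosylation had 18 of 26 above 0, with STT3B of the oligosaccharyltransferase at 0.19 and the mannosyltransferase ALG1 lowest at -0.29.

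Vesicle coat genes followed the same direction. COPII and ER export, the step from ER to Golgi, had 19 of 24 members above 0 with a median of 0.13, and 9 were higher by at least 0.2. SEC24D, a cargo-binding coat subunit, differed by 0.40, the cargo receptor subunit MCFD2 by 0.33 and TMED2 by 0.32. COPI and Golgi, the return step, had 16 of 18 members above 0 with a median of 0.11. ARF4, a GTPase of the early Golgi, read 1646, 1656 and 2210 on the untransfected, GFP and DKK3 arrays, a difference of 0.66, and it was the largest in that list. GOLPH3 differed by 0.36, the coat subunits ARCN1 by 0.33, COPB1 by 0.30 and COPA by 0.20, and the Golgi stacking protein GORASP2 by 0.22. The DKK3 array was highest in 14 of the 18 COPI and Golgi members and in 15 of the 24 COPII members, against 34.1% of all genes. Most of these members already lay above GFP, so 34.1% is no fair background for these counts. Set aside in blocks 22 to 24 were 7 further COPI and Golgi genes, of which the coat subunits COPG2 at -0.19, COPE at -0.15 and COPZ1 at -0.11 and the Golgi SNARE GOSR1 at -0.17 lay below 0, while COPB2 stood at 0.18, COPG1 at 0.03 and ARF1 at 0.03.

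**Figure D5:**
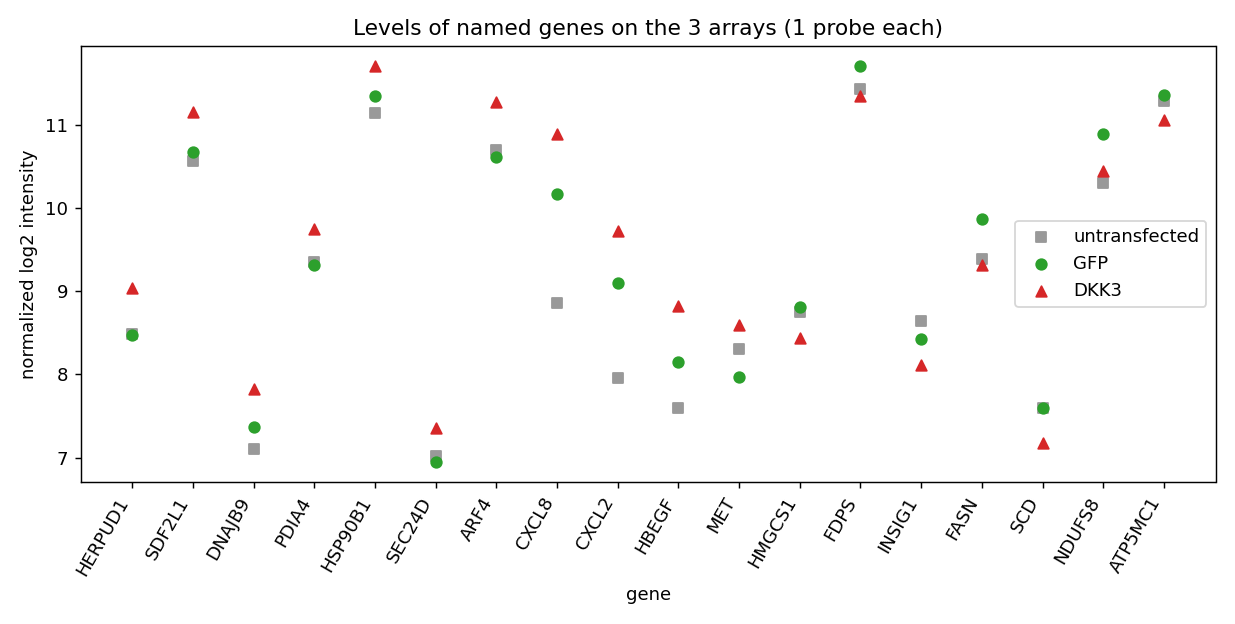
Normalized log2 intensity (y axis) of 18 named genes (x axis) on the untransfected, GFP and DKK3 arrays, 1 probe per gene. For HERPUD1, SDF2L1 and ARF4 the red DKK3 triangle stands above both other symbols. For CXCL8 and CXCL2 the 3 arrays are spread out with DKK3 highest, and for FASN and NDUFS8 the GFP array is highest.

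After quantile normalization the genes of cholesterol synthesis, which the transcription factor SREBP2 drives, lay furthest below 0. Of 20 members 17 were below, with a median of -0.13. None was higher by 0.2 and 8 were lower by that size. HMGCS1, an early enzyme of the path, read 414, 452 and 301 on the untransfected, GFP and DKK3 arrays, and FDPS, which makes farnesyl diphosphate, read 2782, 3529 and 2352. The DKK3 array was lowest in both, with differences of -0.37 and -0.36. ACAT2 stood at -0.33, INSIG1, the sterol-regulated ER anchor, at -0.31, NSDHL at -0.31 and TM7SF2 at -0.26. CYP51A1 at 0.07, SQLE at 0.05 and MSMO1 at 0.00 were the members not below 0. The DKK3 array was the lowest of the 3 in 13 of 20 members (65.0%), against 28.6% of all genes. With 17 of 20 members already below GFP, 28.6% is no fair background for this count. Fatty acid synthesis genes were not on one side, with 9 of 19 above 0, yet 2 of them were low. The fatty acid synthase FASN read 656, 974 and 570, at -0.55, where the GFP array was the high one, and the desaturase SCD read 179, 176 and 115, at -0.42, where the DKK3 array was the low one. ELOVL5 stood at 0.27.

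Respiratory chain genes were lower in small steps. Complex I, the NADH dehydrogenase, had 26 of 32 members below 0 with a median of -0.11, and complexes II to V had 28 of 33 below with a median of -0.08. With median scaling these medians were -0.18 and -0.19. NDUFS8, an iron-sulfur subunit, read 1248, 1988 and 1255 on the untransfected, GFP and DKK3 arrays, a difference of -0.45. NDUFB7, NDUFA4 and NDUFA3 each stood at -0.28, NDUFV1 at -0.26 and NDUFB10 at -0.24. On the other side NDUFA8 was at 0.35 and NDUFC2 at 0.22, its 2 probes differing at 0.07 and 0.37. Of the ATP synthase, ATP5MC1 was at -0.30, ATP5F1D at -0.29 and ATP5ME at -0.27, and COX6C of cytochrome oxidase was at -0.20. In NDUFS8 the untransfected and DKK3 arrays lay together below the GFP array. The GFP array was highest in 22 of 32 complex I members and the DKK3 array was lowest in 15, while for complexes II to V these counts were 19 and 17 of 33. Over all genes the GFP array was highest in 32.3% and the DKK3 array lowest in 28.6%. Most members already had the DKK3 array below GFP, so these shares are no fair background for the counts. Mitochondrial ribosome genes had no such shift, with 30 of 59 above 0 and a median of 0.015.

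The difference also moved with the length of genes. Over 11791 genes with a span in the RefSeq annotation (GRCh38.p14), span and difference had a Spearman correlation of 0.214 as a description, and 39.0% of the shortest 20% of genes lay above 0 against 63.1% of the longest 20%. With mean level the correlation of the signed difference was 0.070, although larger differences of either sign were more frequent among bright genes, as given above. Respiratory chain genes are short, with a median span of 11678 bases for complex I. Less the median of all genes of like span (5 classes of equal size), the list medians were -0.086 for complex I, -0.073 for complexes II to V and -0.13 for cholesterol synthesis. By the same measure the unfolded protein response stood at 0.16, mitosis at 0.092 and COPI and Golgi at 0.091. These classes are broad, and whether span has a part in the list values was not tested. Span was examined after the list values were seen.

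Several neutrophil-attracting chemokines were among the higher single genes. CXCL8 read 451, 1198 and 1724 on the untransfected, GFP and DKK3 arrays, CXCL2 read 233, 556 and 764, and CXCL1 read 246, 481 and 619. In all 3 the GFP array was already above the untransfected array, and the DKK3 array was higher still. The differences from GFP were 0.72, 0.63 and 0.53, and CXCL3 followed at 0.30. The chemokine list as a whole had 11 of 15 members above 0 with a median of 0.08, and the other neutrophil attractants, CXCL6 and CXCL5, stood at 0.08 each, CCL20 at 0.10 and CXCL10 at 0.10. NF-kB feedback and subunit genes had 17 of 26 above 0 with a median of 0.07. TNFAIP3, a feedback inhibitor of NF-kB signalling, read 396, 594 and 752, at 0.52, and BIRC3 stood at 0.38, both highest on the DKK3 array. The subunit NFKB1 stood at 0.17 and RELA at -0.05. Cytokines and their receptors had 18 of 30 above 0 with a median of 0.02. IL6R stood at 0.54, CSF2 at 0.43, IL24 at 0.38, IL1A at 0.34 and IL6 at 0.32, while IL1B, whose probe lies in blocks 22 to 24, stood at -0.79.

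The promoters of 3 of the chemokine genes share a match to the NF-kB letters GGGAA, 1 free base and TTCC, shown in capitals with both strands merged because the matches overlap by all but 1 base.
CXCL2, chr4:74099249-74099288, - strand: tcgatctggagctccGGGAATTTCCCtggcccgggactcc
CXCL1, chr4:73869299-73869338, + strand: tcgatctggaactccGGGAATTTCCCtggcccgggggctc
CXCL3, chr4:74038744-74038783, - strand: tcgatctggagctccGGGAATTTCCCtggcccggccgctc
The 3 genes are paralogs with near-identical sequence around the match, so they do not count as separate observations. In the 300-base window 121 promoters (0.443%) held these letters, and 6 of 13 chemokine genes did. The window of CXCL8, which had the largest chemokine difference, held no exact match. A site that departs from these letters would be missed, so this does not show that CXCL8 lacks one. Of 52 measured genes with the letters, 39 lay above 0 with a median of 0.07, and COL7A1 at -0.35 and OAS3 at -0.21 were lowest.

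Interferon-stimulated genes, the antiviral program, pointed the other way in small steps. Of 40 members 27 lay below 0 with a median of -0.04, and 5 were lower by at least 0.2. IFI27 read 1161, 3991 and 2759 on the untransfected, GFP and DKK3 arrays, ISG15 read 590, 1523 and 1074, and IFI35 read 192, 404 and 280. Both plasmid arrays were above the untransfected array, and the GFP array was the higher of them. The differences were -0.29, -0.29 and -0.32. Across the list the GFP array was highest in 27 of 40 members and the DKK3 array lowest in 0, against 32.3% and 28.6% of all genes. A GFP array that is highest lies above the DKK3 array, so the first count is not separate from the 27 members below 0. MX1 stood at -0.23, while PARP12 at 0.27 was the highest member. In blocks 22 to 24 IFI6 read 158, 755 and 230.

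Mitosis genes had 28 of 34 members above 0 with a median of 0.10, which median scaling in place of quantile normalization moved to 0.027, where all genes had a median of 0.034. MAD2L1 of the spindle checkpoint was at 0.35, but its 2 probes gave 0.68 and 0.03. ANLN of the contractile ring was at 0.32, the condensin subunit SMC4 at 0.27, KIF20A at 0.27, BUB1 at 0.26 and SMC2 at 0.25, while the ubiquitin-conjugating UBE2C was at -0.24. ANLN read 236, 174 and 203 on the untransfected, GFP and DKK3 arrays. The GFP array was the lowest of the 3 in 27 of 34 members, against 35.7% of all genes, and the DKK3 array was highest in 8 (23.5%), against 34.1%. With 28 of 34 members already above GFP, these shares are no fair background for the counts. For most mitosis genes the GFP array was thus the low one of the 3, with the DKK3 array between it and the untransfected array. Members with probes only in blocks 22 to 24 were not above 0 there, with CCNA2 at -0.89, NCAPH at -0.52 and LMNB1 at -0.50. DNA replication genes had 17 of 35 above 0 and a median of -0.0049.

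Cytosolic tRNA synthetases and their cofactors had 12 of 15 members above 0 with a median of 0.10, or 0.041 with median scaling. The latter is close to the median of all genes with median scaling, given above for mitosis. AIMP1 was at 0.22, TARS1 at 0.21, EEF1E1 at 0.18, IARS1 at 0.16, NARS1 at 0.15 and HARS1 at 0.12. The GFP array was lowest in 10 of the 15 and the DKK3 array highest in 8, against 35.7% and 34.1% of all genes. As 12 of the 15 already lay above GFP, these shares are no fair background for the counts. ATF4 targets, the amino acid and stress program that overlaps with them, had 20 of 27 above 0 with a median of 0.08. The cystine transporter SLC7A11 read 157, 133 and 168, at 0.39, and the stress transcription factor DDIT3 read 274, 434 and 499, at 0.39. TRIB3 stood at 0.33, and the amino acid transporter pair SLC3A2 and SLC7A5 at -0.22 and -0.20.

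Growth factor and contact signalling genes held a few higher members in lists that were otherwise balanced. HBEGF, a ligand of the EGF receptor, read 178, 275 and 396 on the untransfected, GFP and DKK3 arrays, and MET, the receptor of hepatocyte growth factor, read 304, 237 and 336. Both were highest on the DKK3 array, with differences of 0.66 and 0.62. In the list of EGFR family and ligands 11 of 17 lay above 0 with a median of 0.05. The Notch ligand JAG1 read 156, 126 and 193, at 0.64, the ephrin EFNB2 was at 0.36 and the Notch target HES1 at 0.36, while JAG2 was at -0.24. That list had 13 of 21 above 0 with a median of 0.01.

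Of the Wnt and Dickkopf list 19 of 38 members lay above 0 with a median of 0.0088, and 6 members, DKK3 included, were higher by at least 0.2. CTNNB1, the beta-catenin of the pathway, stood at log2 levels of 7.76, 7.48 and 7.89 on the untransfected, GFP and DKK3 arrays, a difference of 0.41, and the kinase GSK3B, which marks it for destruction, was at 0.34. For CTNNB1 the GFP array was the low one, and the DKK3 array exceeded the untransfected array by less than it exceeded GFP. The pathway targets AXIN2 at -0.01, RNF43 at 0.04, CCND1 at 0.13 and LEF1 at -0.02 lay close to the GFP array. The co-receptors LRP5 and LRP6 stood at 0.04 and -0.06. On the GFP and DKK3 arrays AXIN2 read 38.6 and 40.4, RNF43 37.9 and 41.9, LEF1 51.5 and 50.6, and LRP5 39.9 and 43.6. These spots lie near the detection limits of 33.8 and 36.6. The offset of 50 shrinks differences there, so these values do not show that the genes were unchanged. CCND1 was bright, at 6579 and 6034.

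Keratins and epidermal differentiation genes were mostly slightly below 0. Keratins had 14 of 20 members below 0 with a median of -0.02, led by KRT15, with KRT19 of simple and basal epithelium at -0.24 and KRT18 at 0.28. Epidermal differentiation genes had 19 of 25 below 0 with a median of -0.06, and the calprotectin subunit S100A8 was lowest at -0.28. RPTN was detected on the DKK3 array and not on the GFP array, and was at least 1.31-fold higher. Integrins, laminins and hemidesmosome genes were divided, with 9 of 20 above 0. ITGA2, a collagen receptor subunit, was at 0.33, and the anchoring fibril collagen COL7A1 at -0.35. Keratin and small proline-rich genes have close paralogs, and their probes may cross-hybridise.

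The remaining lists had medians between -0.014 and 0.10 and fewer than 80% of members on one side. Heat shock and chaperonin genes had 18 of 24 above 0 with a median of 0.10, led by CCT5 at 0.29. Mesenchymal genes had 10 of 14 above 0 with a median of 0.10, led by the collagen cross-linker LOX at 0.30. Proteasome genes had 21 of 30 above 0 with a median of 0.07, led by PSMA7 at 0.44. YAP-TEAD targets had 19 of 26 above 0 with a median of 0.07, led by YAP1 at 0.27. Immediate-early and MAPK feedback genes had 24 of 37 above 0 with a median of 0.05, led after NAB2 by PHLDA1 at 0.39 and DUSP1 at 0.37. Glycolysis and hypoxia genes were balanced, with 17 of 32 above 0. Replication-dependent histone genes had 17 of 26 below 0, with H2BC12 lowest at -0.44. TGF-beta and SMAD feedback genes had 18 of 27 above 0, with the activin subunit INHBA at 0.40 and SMAD4 at 0.27. NRF2 targets had 15 of 29 above 0, with the glutathione synthesis enzymes GCLC at 0.38 and GCLM at 0.23. Matrix proteases and inhibitors had 14 of 22 above 0, with MMP14 at 0.24, CTSD at -0.24 and TIMP1 at -0.24. Cell junction genes had 20 of 28 above 0 with CLDN12 highest at 0.32, p53 targets 8 of 14 with GADD45A at 0.28, and class I antigen presentation 7 of 14 with B2M at 0.20, a sign that turned with median scaling.

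Grouping genes by the letters of their symbols, with no choice of members, gave 176 families of at least 8 measured genes. The highest medians were those of CSNK at 0.14, SEC at 0.12, DNAJB at 0.12, UTP at 0.12 and PSMD at 0.11. Of 24 SEC genes, many of them in translocation and vesicle coats, 22 lay above 0. Of 11 PSMD genes 6 did. The lowest medians were those of NDUFA at -0.14, NDUFB at -0.12, IFI at -0.08, ATP at -0.06 and TUBA at -0.06. All 10 NDUFB genes lay below 0. The SEC, PSMD, NDUFA and NDUFB families share members with the translocon, COPII, proteasome and complex I lists. DNAJB, ATP and IFI share members with the ER folding, heat shock, complexes II to V and interferon-stimulated lists. The medians of all these families are therefore not separate from those of the lists. CSNK and UTP symbols cover casein kinase and ribosome biogenesis genes, and CSNK2A1 was highest in CSNK at 0.35.

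Beyond ERSE, ERSE-II and the NF-kB letters, 3 other sets of letters were searched in the promoters after the list values were seen. The cyclic AMP element TGACGTCA was held by 540 promoters (1.98%), and 178 of 288 measured genes with it lay above 0, with a median of 0.03. The interferon element, GAAA, 2 free bases and GAAA with 2 more free bases, was held by 992 (3.63%), with 149 of 270 above 0 and a median of 0.01, and 21 of 34 interferon-stimulated genes held it. The sterol element TCACNCCAC was held by 313 (1.15%), with 53 of 107 above 0 and a median of -0.00032, and 1 of 17 cholesterol synthesis genes held it. The last 2 groups thus lay close to the 54.1% of all measured genes with a promoter entry.

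Inside blocks 22 to 24 the lower genes by size were PDCD10 at -1.93, IFI6 at -1.45, CLDN3 at -1.23, GBE1 at -1.21, ATXN7L2 at -1.15, SLC20A1 at -1.04, CCNA2 at -0.89 and DDB2 at -0.82. PDCD10 read 1354, 1647 and 357 on the untransfected, GFP and DKK3 arrays, so the DKK3 array was the low one, whereas CLDN3 read 384, 998 and 357 with the GFP array high. ATXN7L2 had a probe elsewhere at 0.01 and SLC20A1 one at -0.29, so neither repeated the size outside. The higher genes were AGR2 at 1.60, TEDC2 at 0.73 and RIOX2 at 0.51, with OSCP1, not detected on the GFP array, at least 1.67-fold higher, followed by LRRIQ4 at 0.49, OR10G7 at 0.49, CCDC6 at 0.46 and YES1 at 0.46.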

How the data were processed

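RNA of 3 HSC-3 cultures was hybridised, 1 array each, per the labels. The deposited scanner files hold spot median intensity at 635 nm, which per the file headers joins scans at several gains through fitted lines. The authors' deposited value table holds intensity too, scaled in a way that the sources do not give. Platform annotation gave 20231 of 24454 probes 1 symbol and 4223 none, and symbols were updated through RefSeq (GRCh38.p14), 17234 being current, 2898 replaced through a synonym and 99 kept.

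Background was corrected with normexp (offset 50) in limma 3.58.1 (R 4.3.3), control spots and 6 faulty gene probes were left out, and quantile normalization over the 3 arrays gave log2 levels. Faulty blanks were left out too, which kept 2674, a step taken after the detection limits had been compared with earlier ones. The added offset shrinks differences of dim probes most, so counts past 2-fold can miss changes of dim probes. Probes of a gene were averaged for lists. Calls were rules of size and were tested on simulated data. There most 4-fold increases were called, but most 2-fold changes and most 4-fold decreases were missed. With 1 array per group no test was possible, and this number of arrays sets the precision.

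Named genes were DKK3, genes whose probes agreed, up to 12 named probes past 2-fold each way, up to 6 members of lists on one side and up to 3 of others, the 5 highest and 5 lowest families, and up to 8 genes each way inside blocks 22 to 24. Members, lists and rules were chosen with earlier results of these data known. Chosen after values were seen were 5 of the 6 promoter motifs, the hexosamine enzymes, gene span, the order of the 3 arrays, the column and row check of EPN3, the promoters shown, the genes in the plot of 18 levels, and a few genes named for contrast such as HSPA5, HYOU1, the Wnt targets and further list members. The self-test's pass rule was reset once after the first run. Protein sequences were not used here. Alternatives changed the normalization, the background, the filter, the treatment of array position, the agreement size, the list summary and the source of values.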

Additional observations from a re-analysis of the deposited data

How the results depend on the processing

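Each count, the DKK3 difference and each list median were recomputed with 1 choice changed at a time, except that the authors' deposited values differ in several steps together. DKK3 stayed above GFP in every alternative, at 6.50 with median scaling, 6.63 with cyclic loess, 6.12 with quantile normalization of the DKK3 and GFP arrays only, 6.07 with the mean of the blanks subtracted and 6.68 in the authors' deposited values. Among these, quantile normalization pulls in the top spot of an array by its construction. Probes 2-fold higher numbered 73 with the blanks subtracted and 72 in the authors' values, of which 21 and 20 were among the 21 above. Probes 2-fold lower numbered 73 and 146. The cause was not tested. Genes with agreeing probes higher numbered 1 with median scaling, where UAP1 and PGM3 fell short, 21 with the blanks subtracted, 17 in the authors' values, 22 at a size of 0.2 and 0 at 0.4. Those lower numbered 7 with the blanks subtracted, 11 in the authors' values, 4 at 0.2 and 1 at 0.4. The median of the unfolded protein response was 0.26 with the blanks subtracted, that of cholesterol synthesis -0.21 with them subtracted and -0.26 in the authors' values, and that of complexes II to V -0.19 with median scaling. All 7 one-sided lists kept their sign in 13 of 13 alternatives. COPI and Golgi had 80% on one side in 12 of them and tRNA synthetases and mitosis in 10. With median scaling mitosis, at 0.027, lay below the median of all genes, and tRNA synthetases, at 0.041, lay close to it. For these lists the kept sign there is no shift away from all genes. With blocks 22 to 24 kept in, 4 lists were one-sided, and the cause was not tested. B2M was at 0.20 in the values above and at -0.038 with median scaling. CRISP2 at -0.98 with median scaling and SLC20A1 at -0.98 with block and row medians subtracted no longer passed 2-fold. No paired analysis was possible because each group is 1 array and no result comes from a test, and no replicate could be left out. The 2-fold counts were 21 and 24 both with no filter on dim probes and with the limit at the mean plus 3 SD of the blanks, and with 1 array a group their error is unknown.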
